A study of Mus musculus with 8 samples.

Results

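The Pim kinases form a family of 3 genes, Pim1, Pim2 and Pim3, taken by symbol from the 19826 genes of an RNA-seq table of sorted mouse regulatory T cells (Treg). They were selected on the normalized counts of these same libraries, with earlier results on their difference between the groups in view, so their own values are described below and not tested. Libraries of mice with and without a floxed Pdpk1 gene were compared, written Pdpk1 KO and WT. The 4 libraries labelled Pdpk1 KO came from Foxp3 YFP-Cre/+ Pdpk1 FL/FL mice, in which Cre recombinase cuts the floxed copies of Pdpk1. The 4 WT libraries came from Foxp3 YFP-Cre/+ Pdpk1 +/+ mice. Both groups were C57BL/6, untreated, and carried the YFP-Cre allele on 1 of the X chromosomes. Foxp3 drives that allele, so Cre is made in Treg. Since a cell keeps only 1 X chromosome active, the sorted CD4+ YFP+ cells are those that use the Cre-bearing X, and the animals also hold Treg without Cre. The cells were taken from spleen and peripheral lymph nodes, and polyadenylated RNA was sequenced. The labels give no age and do not state how many mice went into a library, and p-values therefore reflect only the scatter among the sequenced libraries. Pdpk1 encodes PDK1, the kinase that switches on AKT and other AGC kinases downstream of PI3K.

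The Pim kinases are serine/threonine kinases named after proviral integration sites of Moloney leukaemia virus in mouse lymphomas. They need no activating phosphorylation by an upstream kinase such as PDK1, and their activity in a cell follows how much of the protein is made and how quickly it is degraded. Cytokines acting through JAK kinases and STAT factors, and NF-kB, are known to raise Pim transcription in lymphocytes. Pim kinases share several substrates with AKT, among them the cell death protein BAD and regulators of cap-dependent translation. In mouse T cells Pim1 and Pim2 have been tied to growth and survival when mTOR is inhibited.

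The 3 genes lie on separate chromosomes, all on the plus strand, in GRCm38 positions of GENCODE release M21. Pim1 (ENSMUSG00000024014) spans chr17:29490753-29496112, Pim2 (ENSMUSG00000031155) spans chrX:7878262-7883432, and Pim3 (ENSMUSG00000035828) spans chr15:88862186-88865726. All are protein coding, and their merged exons measure 3362, 2795 and 2427 bases in that order. The bases just before each annotated start are shown because the 3 genes stood higher in the same libraries. They are the plus strand of RefSeq promoter windows on GRCm38.p6, which held an entry for 3 of the 3 genes, cut to end before the first annotated transcript base. The stretches are chr17:29490535-29490752 for Pim1, chrX:7878056-7878261 for Pim2 and chr15:88861944-88862185 for Pim3. Capitals mark a CCAAT box, or ATTGG on the opposite strand, and the octamer ATGCAAAT, or ATTTGCAT on the opposite strand.
Pim1: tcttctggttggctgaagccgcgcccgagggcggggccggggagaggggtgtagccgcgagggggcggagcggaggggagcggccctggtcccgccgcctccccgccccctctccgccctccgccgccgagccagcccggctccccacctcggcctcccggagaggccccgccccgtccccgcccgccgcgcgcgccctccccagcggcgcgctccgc
Pim2: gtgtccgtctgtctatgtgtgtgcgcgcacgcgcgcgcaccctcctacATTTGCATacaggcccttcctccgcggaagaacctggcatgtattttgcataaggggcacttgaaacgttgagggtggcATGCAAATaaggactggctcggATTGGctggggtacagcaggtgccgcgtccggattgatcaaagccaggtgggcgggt
Pim3: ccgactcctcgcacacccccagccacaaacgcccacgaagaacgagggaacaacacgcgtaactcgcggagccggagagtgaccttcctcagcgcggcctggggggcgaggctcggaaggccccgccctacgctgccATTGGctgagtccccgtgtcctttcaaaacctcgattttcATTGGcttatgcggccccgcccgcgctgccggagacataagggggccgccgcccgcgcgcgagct

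Over the 250 bases before the RefSeq start, searched on both strands, no window held the STAT motif TTCNNNGAA. A STAT match was present in 7.02% of the 32851 promoter windows of the same length. The NF-kB motif searched, spelled GGG, A or G, any base, 2 of C or T, then CC, was in none of the 3 windows either, against 7.91% of all windows. Pim2 held the octamer at 202 and 123 bases before its RefSeq start, a sequence found in 1.60% of all windows. CCAAT boxes stood 101 bases before the start of Pim2 and 113 and 73 bases before that of Pim3, and 33.9% of all windows held at least 1. Neither the E-box CACGTG nor the forkhead motif GTAAACA was in these 3 windows, against 6.02% and 3.17% of all windows. A second RefSeq window of Pim1, before a start inside the gene, held the E-box 58 and the forkhead motif 70 bases before that start, and no STAT or NF-kB motif. The octamer, CCAAT, E-box and forkhead motifs were picked after the sequences had been read, and a match is a description of the letters, not of a bound site. The windows also differed in base composition. G and C made up 82.4% of the Pim1 window, more than in 99.4% of all windows, against 62.0% for Pim2, 68.0% for Pim3 and a median of 52.4%.

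All 3 Pim transcripts stood higher in Pdpk1 KO Treg, and Pim2 had the largest difference of the 3. The values are normalized counts, that is, reads per gene after the authors' scaling by DESeq2 size factors. Pim1, the founding member and the one with the most reads, had 11325.4, 9600.3, 9719.2 and 11426.9 normalized counts in the Pdpk1 KO libraries, against 8409.8, 6029.8, 5723.4 and 6186.3 in WT. The lowest Pdpk1 KO library lay above the highest WT library, WT 1, which stood apart from the other WT libraries. The means were 10518 ± 993 in Pdpk1 KO and 6587 ± 1230 in WT (SD, n = 4 each). That is a log2 difference of 0.69 ± 0.12 (SE), with a 95% interval of 0.43 to 0.94, or 1.61-fold.

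Pim2, the member most often linked to T cell growth under rapamycin, had 2300.6, 2385.5, 2440.8 and 2050.7 normalized counts in Pdpk1 KO, against 873.7, 1106.9, 882.9 and 829.9 in WT. The groups were far apart, and the lowest Pdpk1 KO value was well above the highest WT value, that of WT 2. The means were 2294 ± 172 in Pdpk1 KO and 923 ± 125 in WT (SD, n = 4 each). The log2 difference was 1.32 ± 0.11 (SE), with a 95% interval of 1.08 to 1.55, or 2.49-fold.

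Pim3, the member studied least in T cells, had 1135.9, 1104.6, 1162 and 1011.3 normalized counts in Pdpk1 KO, against 715.8, 722.3, 573.5 and 843.1 in WT. Again no library of one group reached into the other, and here WT 4 came closest. The means were 1103 ± 65.8 in Pdpk1 KO and 714 ± 110 in WT (SD, n = 4 each). The log2 difference was 0.64 ± 0.12 (SE), with a 95% interval of 0.37 to 0.91, or 1.56-fold. In bulk RNA, more cells that make a transcript and more of it per cell cannot be told apart.

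**Figure D1:**
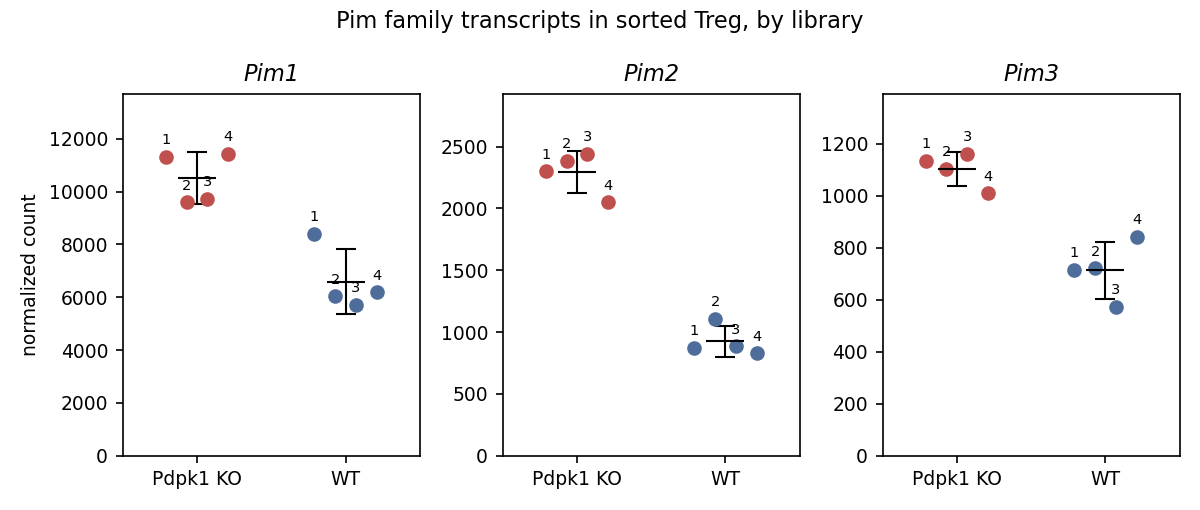
Normalized counts (vertical axes, each starting at 0) of Pim1, Pim2 and Pim3 in the 4 Pdpk1 KO and 4 WT libraries, numbered by replicate, with the mean and SD as bars. Every Pdpk1 KO point sits above every WT point in each panel, and the relative gap is widest for Pim2, with means of 2294 and 923.

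All 3 were among the genes called higher by limma over the whole table (adjusted p under 0.05), where 4.41% of the 13847 tested genes were called higher in Pdpk1 KO and 9.47% were called in either direction. Genes with every Pdpk1 KO library above every WT library made up 7.06% of those tested, and genes with every Pdpk1 KO library below every WT library 8.24%. These calls use the values for which the genes were chosen, and nothing is read from them. Of the tested genes, 300 had a larger log2 difference than Pim2, 941 a larger one than Pim1 and 1054 a larger one than Pim3. The reads behind the values ran between 5785 and 13390 per library for Pim1, between 775 and 2471 for Pim2 and between 623 and 1220 for Pim3. The longest run of bases shared by transcripts of any pair was 24, between Pim1 and Pim3, and 17 for the other pairs.

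The summed Pim normalized count was 14761.9, 13090.4, 13322 and 14488.9 in Pdpk1 KO, against 9999.3, 7859, 7179.8 and 7859.3 in WT. The groups did not overlap, and the mean of 13916 ± 832 in Pdpk1 KO was 1.69 times the mean of 8224 ± 1226 in WT. The 3 genes did not keep a fixed proportion. The ratio of Pim2 to Pim3 normalized counts was 2.03, 2.16, 2.10 and 2.03 in Pdpk1 KO, against 1.22, 1.53, 1.54 and 0.984 in WT, with no overlap. The ratio of Pim2 to Pim1 averaged 0.221 ± 0.0352 in Pdpk1 KO and 0.144 ± 0.0336 in WT, with Pdpk1 KO 4 at 0.179 just under WT 2 at 0.184. The ratio of Pim3 to Pim1 averaged 0.106 ± 0.0142 in Pdpk1 KO and 0.110 ± 0.0224 in WT, and the groups overlapped widely.

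Compared per length, as RPKM (reads per kilobase of merged exon, scaled to the total reads of each library), Pim1 was the most abundant member in all 8 libraries. Its level was 140 ± 17.4 RPKM in Pdpk1 KO and 94.9 ± 22.1 in WT. Pim2 stood at 36.7 ± 2.86 RPKM in Pdpk1 KO and 15.9 ± 2.03 in WT. Pim3 stood at 20.3 ± 1.58 RPKM in Pdpk1 KO and 14.2 ± 2.61 in WT. In Pdpk1 KO the order Pim1, Pim2, Pim3 held in every library, with no overlap between neighbours. In WT the levels of Pim2 and Pim3 overlapped, and Pim3 was the higher of the pair in WT 4. With each gene's longest transcript as its length, a choice made after the data were seen, Pim2 in WT was 21.7 ± 2.78 against 14.2 ± 2.61 for Pim3, and the values did not overlap. Pim2 made up 18.7 ± 2.19% of the summed level in Pdpk1 KO and 13.0 ± 2.54% in WT, and the groups did not overlap. The share of Pim1 was 70.9 ± 3.14% in Pdpk1 KO and 75.5 ± 3.57% in WT, and that of Pim3 10.4 ± 0.952% and 11.5 ± 1.96%, both with overlap. On this scale, which divides by all reads of a library, the ratio of group means was 1.48 for Pim1, 2.31 for Pim2 and 1.43 for Pim3, each lower than with the deposited size factors.

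Among tested genes ranked on the same per-length scale, Pim1 was above 98.1% in Pdpk1 KO and 96.9% in WT. Pim2 was above 91.0% in Pdpk1 KO and 77.2% in WT, and Pim3 above 82.8% in Pdpk1 KO and 74.8% in WT. Kinases listed as activated by PDK1 give a scale for these levels, since some of them, such as AKT, share substrates with the Pim kinases. Ordered with 21 of those kinases, Pim1 came first of 24 in both groups. Pim2 was 6th in Pdpk1 KO and 9th in WT, and Pim3 was 8th in Pdpk1 KO and 11th in WT. Akt1, a form of AKT, averaged 41.7 ± 1.91 RPKM in Pdpk1 KO and 44.3 ± 3.29 in WT. With merged exons as the length, the level of Pim2 in Pdpk1 KO thus lay just under that of Akt1. With its longest transcript as the length, Pim2 stood at 50.1 ± 3.90 RPKM in Pdpk1 KO. The order above and the sums below use merged exons only. The summed level of Akt1 and Akt2 was 68.6 ± 2.83 RPKM in Pdpk1 KO and 72.7 ± 4.89 in WT. The ratio of the summed Pim level to that of Akt1 and Akt2 was 3.05, 2.54, 2.78 and 3.12 in Pdpk1 KO, against 1.99, 1.62, 1.44 and 1.80 in WT. The groups did not overlap in this ratio.

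**Figure D2:**
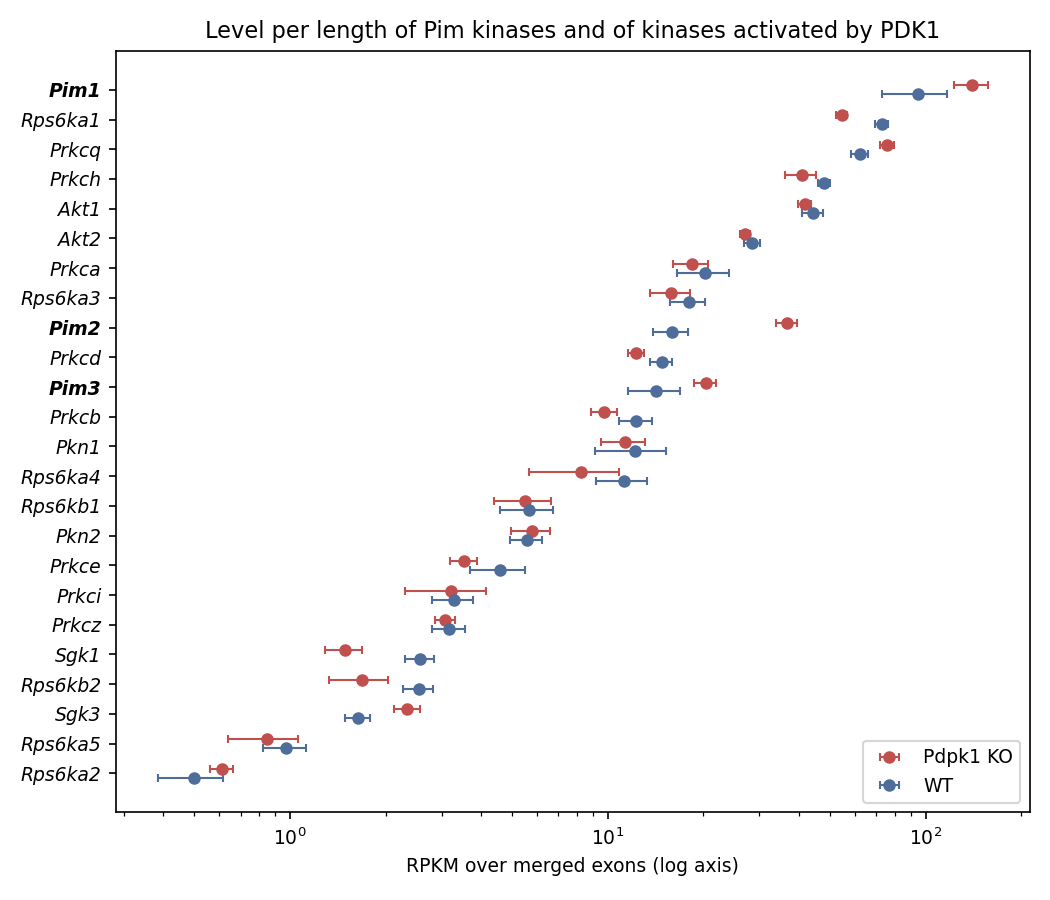
Mean RPKM with SD (merged exons, n = 4 libraries per group) of the 3 Pim genes and 21 kinases listed as activated by PDK1. The horizontal axis is logarithmic, genes are ordered by the WT level, and Pdpk1 KO is drawn above WT in each line. Pim1 is highest in both groups, and the Pim2 points are the farthest apart among the 3 Pim genes, at 36.7 in Pdpk1 KO and 15.9 in WT.

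Pdpk1 itself (chr17:24073680-24150924, minus strand) is the targeted gene. It had 2505.5, 1900.1, 1871.5 and 1656.4 normalized counts in Pdpk1 KO, against 2599.6, 2374.4, 1995 and 1923.3 in WT, and the groups overlapped. The log2 difference was -0.17, with a 95% interval of -0.45 to 0.11 (limma adjusted p = 0.491; exact two-sided permutation p = 0.286 over 70 assignments, n = 4 each). A count over the whole gene includes exons outside the floxed part, so it does not check the deletion. Foxp3, the lineage factor, averaged 5355 ± 743 in Pdpk1 KO and 5086 ± 740 in WT, with a log2 difference of 0.08 (limma adjusted p = 0.768; exact two-sided permutation p = 0.600, n = 4 each). Of 8 Treg identity genes, all tested, Il2ra rose, Ikzf2 and Izumo1r fell and 5 did not pass. Ikzf2, which encodes Helios, averaged 4116 ± 379 in Pdpk1 KO and 9041 ± 940 in WT, a log2 difference of -1.13 ± 0.10 (limma adjusted p = 4.45e-06). Izumo1r, which encodes folate receptor 4, averaged 10820 ± 599 in Pdpk1 KO and 16862 ± 2192 in WT, a log2 difference of -0.63 ± 0.11 (limma adjusted p = 0.00143). Depth ran between 17448095 and 26299577 reads per library.

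Macrophage transcripts differed between the groups. Of 20 macrophage markers 19 were tested, 8 rose in Pdpk1 KO, 1 (Axl) fell and 10 did not pass, with a median log2 difference of 2.12. Their summed normalized count ran between 2179 and 7141 in Pdpk1 KO and between 1593 and 3160 in WT, and was highest in Pdpk1 KO 2, Pdpk1 KO 3 and WT 2. Without Axl, the sum was 1775, 6346, 4732 and 2000.4 in Pdpk1 KO, against 352, 2030.4, 652 and 679.8 in WT. Only WT 2 then reached into the range of the Pdpk1 KO libraries. Of the 20 markers, 3 were at 0 in Pdpk1 KO 4 (Cd14, Fcgr1 and Marco), 4 in WT 3 (Cd163, Fcgr1, Marco and Spic), 1 in WT 4 (Mertk) and 7 in WT 1, Cd14, Marco and Mertk among them. WT 2 had a higher sum than Pdpk1 KO 1 and Pdpk1 KO 4, with or without Axl, and lower counts of each Pim gene than either. Pdpk1 KO 2 and Pdpk1 KO 3 had the least Pim1 of their group. They also had the most Pim2 of their group, at 2385.5 and 2440.8, and WT 2 had the most Pim2 of WT, at 1106.9. With the mean macrophage marker level as a covariate, the log2 difference was 0.94 for Pim1 (0.65 to 1.24), 1.12 for Pim2 (0.83 to 1.42) and 0.58 for Pim3 (0.21 to 0.95). Without those 3 libraries, a choice made after the data were seen, it was 0.77 for Pim1 (0.39 to 1.15), 1.33 for Pim2 (1.02 to 1.65) and 0.61 for Pim3 (0.20 to 1.02). Of the other cell types, 5 of 8 B cell markers were in the table used, and their sum ran between 163 and 307 in Pdpk1 KO and between 443 and 565 in WT. The macrophage covariate, on a centred log2 scale, was -0.01, 2.08, 1.69 and 0.17 in Pdpk1 KO, against -2.40, 0.72, -1.31 and -0.94 in WT. Only WT 2 reached into the Pdpk1 KO range, so that fit cannot fully separate macrophage level from group. The part of macrophage and B cell transcripts in the Pim values was not tested.

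**Figure D3:**
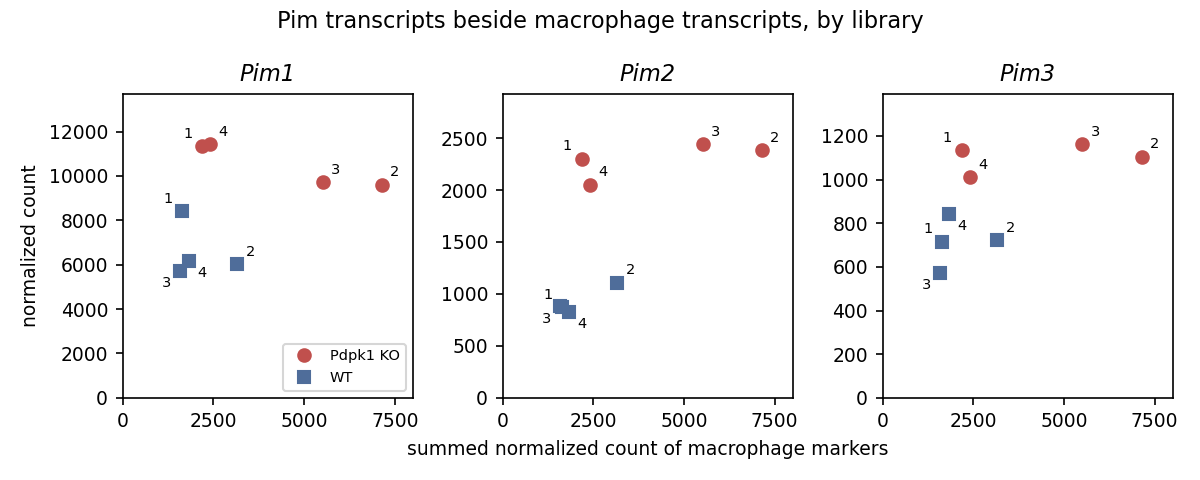
Normalized count of each Pim gene (vertical axes) against the summed normalized count of 20 macrophage markers (horizontal axis) in the 8 libraries, numbered by replicate. WT 2, at 3160 on the horizontal axis, lies to the right of Pdpk1 KO 1 and Pdpk1 KO 4 and below them in all 3 panels.

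Cytokine receptors, JAK kinases and STAT factors signal to the Pim genes, and their transcripts moved in both directions. Of 20 listed genes, all tested, 3 rose in Pdpk1 KO, 3 fell and 14 did not pass. The median log2 difference of the list was 0.08, beside -0.01 over all tested genes, of which 4.41% were called higher and 5.06% lower. These shares are also the background for the lists that follow. Il7r, the receptor chain for the survival cytokine IL-7, had 8343.2, 9454.5, 5771.8 and 4773.9 normalized counts in Pdpk1 KO, against 3182.4, 2653.7, 2944.1 and 1729.2 in WT. Its values were the most scattered of the genes that rose in this list, yet the groups did not overlap, and the log2 difference was 1.41 ± 0.21 (limma adjusted p = 0.000436). Il2ra, the high-affinity IL-2 receptor chain CD25, averaged 24420 ± 2591 in Pdpk1 KO and 15734 ± 914 in WT, a log2 difference of 0.63 ± 0.10 (limma adjusted p = 0.00114). Stat4, the factor that responds to IL-12, had a log2 difference of 0.31 (limma adjusted p = 0.0499). Leaving out any 1 of the 8 libraries ended that call, with log2 differences of 0.29 to 0.32 and adjusted p between 0.0691 and 0.125.

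The genes that fell in this list were a receptor and a pair of JAK kinases. Il21r, the IL-21 receptor, averaged 3238 ± 350 in Pdpk1 KO and 5269 ± 385 in WT, a log2 difference of -0.71 ± 0.10 (limma adjusted p = 0.000294). Jak3, the kinase bound to the common cytokine receptor chain, averaged 3946 ± 270 in Pdpk1 KO and 5675 ± 1063 in WT, a log2 difference of -0.51 ± 0.12 (limma adjusted p = 0.0109). Tyk2, a JAK kinase of interferon and IL-12 receptors, had a log2 difference of -0.41 (limma adjusted p = 0.0187). Its call was lost without Pdpk1 KO 2, Pdpk1 KO 3, WT 1 or WT 4, with log2 differences of -0.41 to -0.35 and adjusted p between 0.0503 and 0.0584. The STAT5 genes themselves did not pass, at -0.23 for Stat5a (adjusted p = 0.153) and 0.07 for Stat5b (adjusted p = 0.68) on the log2 scale.

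Pim1 and Pim2 are themselves known targets of STAT5 in lymphocytes. Among 20 other STAT5 target genes, all tested, 5 rose, 2 fell and 13 did not pass, with a median log2 difference of -0.01. The list was chosen with earlier results of these data known. Its share of calls was therefore not tested against the 4.41% called higher over all tested genes. Socs2, a feedback inhibitor of cytokine and growth hormone receptors, had 5605, 4693.3, 3971 and 5117.8 normalized counts in Pdpk1 KO, against 2243.4, 2007.5, 1971 and 1848.7 in WT. Every Pdpk1 KO library was far above every WT library, with a log2 difference of 1.26 ± 0.11 (limma adjusted p = 3.78e-06). Myc, a transcription factor of cell growth whose protein Pim kinases stabilise, had 9818.9, 8964.7, 8613.4 and 7837.6 normalized counts in Pdpk1 KO, against 3782.1, 3909.7, 3548.9 and 3772 in WT. Its groups were as clearly separated, with a log2 difference of 1.23 ± 0.09 (limma adjusted p = 1.27e-06).

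The other STAT5 targets that rose were Il2ra, given above, Spry1 and Bcl2. Spry1, an inhibitor of receptor signalling to ERK, averaged 1332 ± 144 in Pdpk1 KO and 732 ± 50.6 in WT, a log2 difference of 0.86 ± 0.11 (limma adjusted p = 0.000134). Bcl2, the survival protein, averaged 12825 ± 384 in Pdpk1 KO and 8570 ± 376 in WT, a log2 difference of 0.58 ± 0.08 (limma adjusted p = 0.000433). Bcl2l1, which encodes the survival protein BCL-XL, went the other way. It averaged 576 ± 98.8 in Pdpk1 KO and 1241 ± 111 in WT, a log2 difference of -1.12 ± 0.13 (limma adjusted p = 7.01e-05). Cish, a STAT5-induced feedback inhibitor, had 2525, 2005.3, 2090.5 and 2551.6 normalized counts in Pdpk1 KO, against 3085.5, 3323.9, 3385.1 and 3534.9 in WT. It fell by 0.55 ± 0.10 on the log2 scale (limma adjusted p = 0.0028), and is named here after its values were seen. The related inhibitors Socs1 and Socs3 stood at -0.47 and -0.46 and did not pass (adjusted p = 0.0862 and 0.126), also named after their values were seen.

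**Figure D4:**
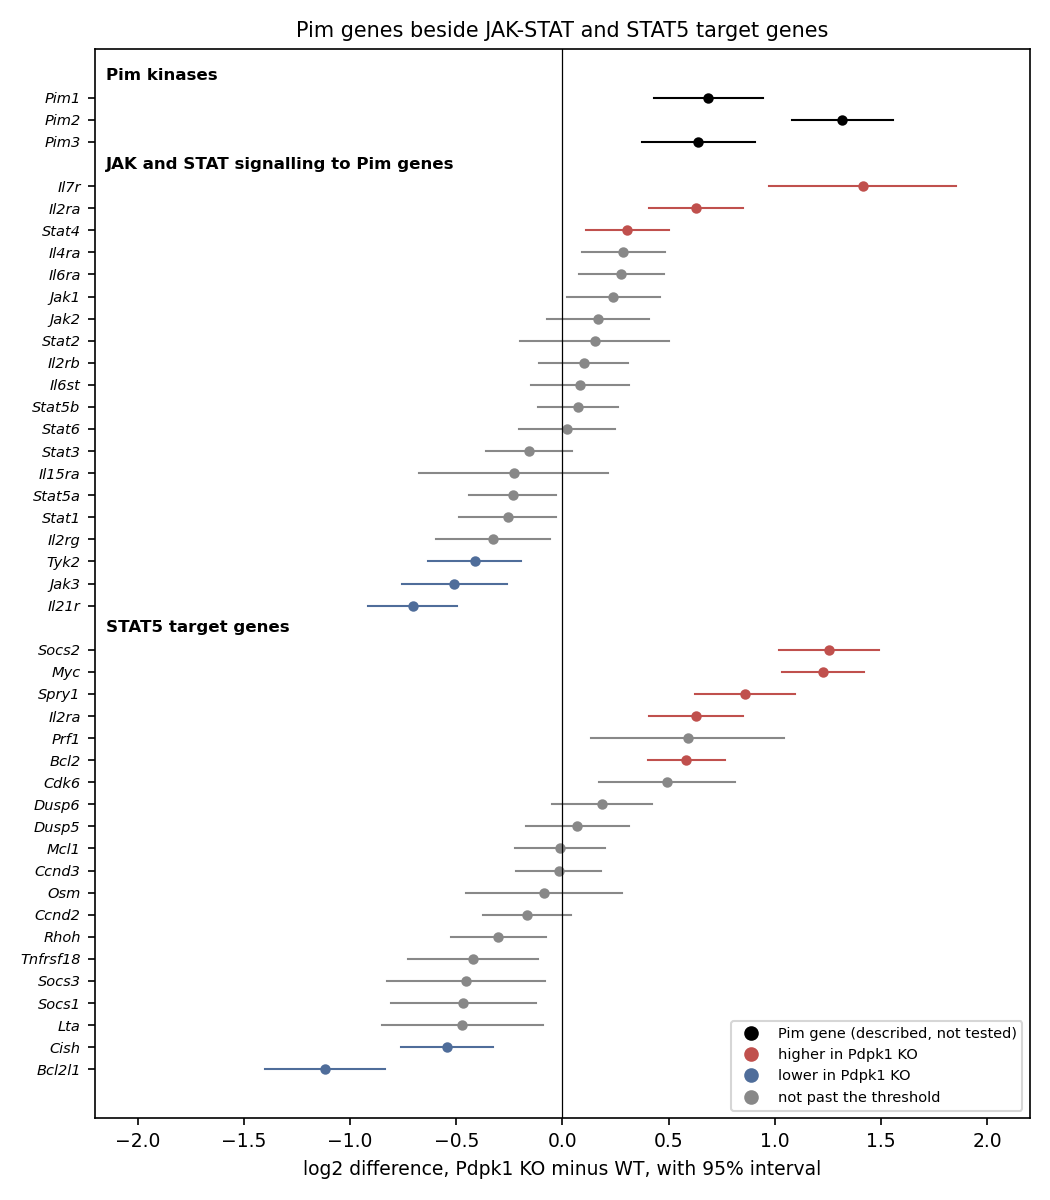
Log2 difference between Pdpk1 KO and WT with its 95% interval (horizontal axis) for the 3 Pim genes, 20 JAK and STAT signalling genes and 20 STAT5 target genes, with Il2ra in both lists. Pim1, Pim2 and Pim3, at 0.69, 1.32 and 0.64, are described without a test, and each list holds genes on either side of 0.

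NF-kB subunits and inhibitors, the other known input to the Pim genes, gave no gene called higher. Over all tested genes, 4.41% were called higher and 5.06% lower, so a list this short can easily hold 0 called higher. Of 14 listed genes, all tested, 4 fell and 10 did not pass, with a median log2 difference of -0.16. At an unadjusted p under 0.05 limma found 0 higher and 7 lower, and edgeR and DESeq2 each called 0 higher and 4 lower after adjustment. Nfkbie, the inhibitor IkB epsilon, averaged 665 ± 63.7 in Pdpk1 KO and 1185 ± 89.7 in WT, a log2 difference of -0.83 ± 0.11 (limma adjusted p = 0.00023). Nfkbid, a nuclear IkB protein, had a log2 difference of -0.91 ± 0.19 (limma adjusted p = 0.00579). Both encode inhibitors or modulators rather than DNA-binding subunits. Bcl3, another nuclear IkB protein, had a log2 difference of -0.44 (limma adjusted p = 0.0101). Relb, a subunit of the alternative pathway, had a log2 difference of -0.33 (limma adjusted p = 0.0395). The call of Relb was lost when any 1 library other than Pdpk1 KO 4 was left out, with log2 differences of -0.35 to -0.28 and adjusted p between 0.0504 and 0.101.

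Downstream of the kinases, the transcripts of genes listed as Pim substrates mostly did not pass. The same held for all tested genes, of which 4.41% were called higher and 5.06% lower. Of 30 substrate genes, listed from general knowledge and all tested, 1 rose, 2 fell and 27 did not pass, with a median log2 difference of -0.02. Pim kinases act on the proteins, which were not measured. Myc was the gene that rose. Nfatc1, a calcium-regulated transcription factor, averaged 3179 ± 324 in Pdpk1 KO and 5109 ± 396 in WT, a log2 difference of -0.69 ± 0.10 (limma adjusted p = 0.000353). Bad, a classic substrate shared with AKT, stood at -0.47 and did not pass (adjusted p = 0.116).

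Genes of cap-dependent translation, where Pim and mTORC1 signals meet, gave 2 that rose and 18 that did not pass out of 20, all tested, with a median log2 difference of 0.14. No gene of the list was called lower by limma, edgeR or DESeq2, where limma called 5.06% of all tested genes lower. At an unadjusted p under 0.05 limma found 5 higher and 1 lower in the list. Rps6, the ribosomal protein phosphorylated by S6 kinases, averaged 52161 ± 7078 in Pdpk1 KO and 34536 ± 5263 in WT, a log2 difference of 0.60 ± 0.14 (limma adjusted p = 0.013). Under quantile normalization its log2 difference was 0.22 (adjusted p = 0.0535). Ribosomal protein genes have many pseudogene copies, and this value is uncertain because the handling of shared reads was not given in the sources used here. Eif4a1, the helicase of the cap-binding complex, had a log2 difference of 0.33 (limma adjusted p = 0.0396). Its call was lost without any 1 of 6 libraries, all but Pdpk1 KO 1 and WT 3, with log2 differences of 0.28 to 0.35 and adjusted p between 0.0652 and 0.117.

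Of 22 kinases listed from general knowledge as activated by PDK1, all tested, 3 rose, 1 fell and 18 did not pass. Their median log2 difference was 0.00, and whether each depends on PDK1 was not checked. Akt1 and Akt2 stood at 0.02 and 0.03 on the log2 scale and did not pass (limma adjusted p = 0.91 and 0.866). Sgk3, a relative of AKT found on endosomes, averaged 749 ± 44.4 in Pdpk1 KO and 487 ± 46.6 in WT, a log2 difference of 0.62 ± 0.12 (limma adjusted p = 0.00389). Prkcq, the protein kinase C form of the T cell synapse, had a log2 difference of 0.39 ± 0.09 (limma adjusted p = 0.0105). Sgk1, a salt- and hormone-induced kinase, was the gene that fell, at -0.68 ± 0.19 (limma adjusted p = 0.0329). Its call was lost without any 1 of 6 libraries, all but Pdpk1 KO 2 and WT 3, with log2 differences of -0.71 to -0.60 and adjusted p between 0.0562 and 0.0953.

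The BCL2 family, through which Pim and AKT signals reach cell survival, was split. Of 17 listed genes 15 were tested, 3 rose, 3 fell and 9 did not pass, with a median log2 difference of -0.01. Beside Bcl2, the genes that rose encode proteins that promote death. Bcl2l11, which encodes BIM, averaged 3530 ± 681 in Pdpk1 KO and 1726 ± 160 in WT, a log2 difference of 1.02 ± 0.13 (limma adjusted p = 0.000106). Bbc3, which encodes PUMA, had a log2 difference of 0.63 ± 0.16 (limma adjusted p = 0.0211). Its call was lost without Pdpk1 KO 2, Pdpk1 KO 3, WT 1 or WT 3, with log2 differences of 0.49 to 0.64 and adjusted p between 0.0508 and 0.0701. The genes that fell encode survival proteins, Bcl2l1, Bcl2a1d and Bcl2a1b. Bcl2a1d had a log2 difference of -1.83 ± 0.26 (limma adjusted p = 0.000353) and Bcl2a1b of -1.09 ± 0.26 (limma adjusted p = 0.016). Bcl2a1b was at -1.04 without WT 3 (adjusted p = 0.0512), and the Bcl2a1 genes are near-identical copies whose reads may have been split, so both values are uncertain.

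Chaperones, phosphatase subunits and turnover factors of the Pim proteins gave no call among 10 genes, all tested, with a median log2 difference of 0.08. With 9.47% of all tested genes called in either direction, a list of 10 can easily hold no call. At an unadjusted p under 0.05 limma and edgeR found 0 of the 10 and DESeq2 found 1 higher. Hsp90ab1, the chaperone that stabilises Pim proteins, stood at 0.26 (limma adjusted p = 0.277), and at -0.07 under quantile normalization. Hspa8, a constitutive HSC70 chaperone, stood at 0.38 (limma adjusted p = 0.269). Over these 8 lists and the Treg identity list together, 142 distinct genes were tested, 14 rose and 16 fell, with a median log2 difference of 0.02. Over all tested genes 4.41% were called higher and 5.06% lower, and whether the lists exceed these shares was not tested. Several lists share members, Myc, Bcl2, Bcl2l1 and Il2ra among them. With the macrophage covariate, 224 of all tested genes were called higher (1.62%) and 299 lower, against 611 and 700 without it. In that fit, 15 of the 29 genes past the threshold that the naming rule selected, Treg identity genes included, no longer passed. Among them were Izumo1r (-0.47), Jak3 (-0.24), Tyk2 (-0.20), Stat4 (0.32), Nfkbid (-0.78), Bcl3 (-0.36), Relb (-0.37), Rps6 (0.39), Eif4a1 (0.21), Sgk3 (0.59), Prkcq (0.36), Sgk1 (-0.87), Bcl2a1b (-1.14) and Bbc3 (0.20), each with its log2 difference in that fit. Without Pdpk1 KO 2, Pdpk1 KO 3 and WT 2, 14 lost their call, among them Bcl2 at 0.53 (limma adjusted p = 0.0617). There, 167 of all tested genes were called higher (1.21%) and 305 lower.

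**Figure D5:**
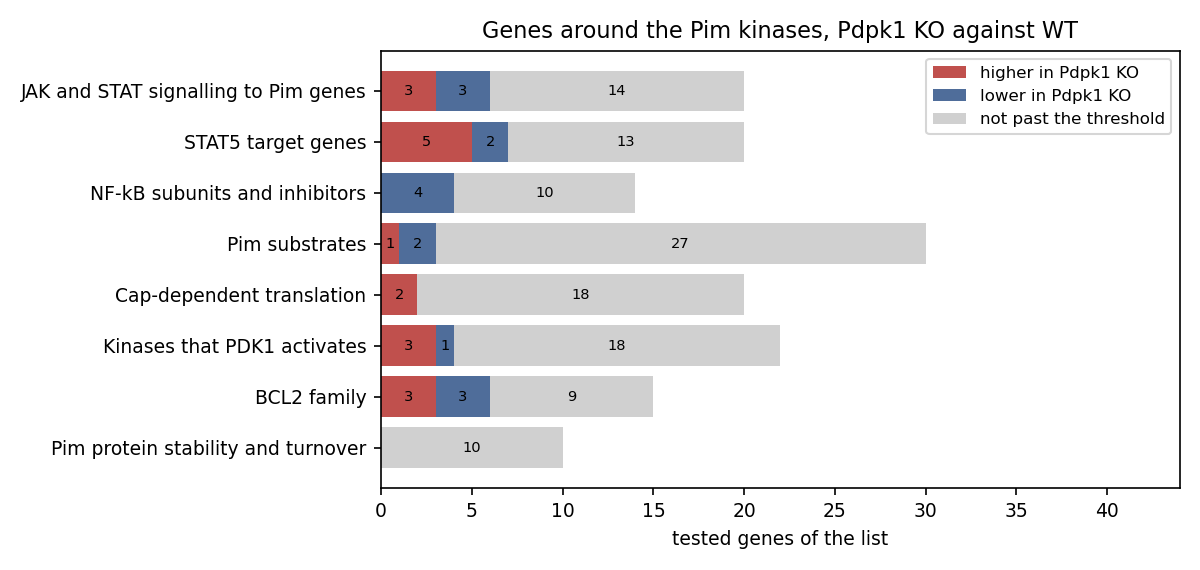
Number of tested genes (horizontal axis) in each of 8 lists around the Pim kinases that were called higher in Pdpk1 KO, called lower or not past the threshold, by limma adjusted p over all tested genes. STAT5 target genes hold the most called higher, 5 of 20, and NF-kB genes hold 4 called lower and 0 called higher. Over all tested genes 4.41% were called higher and 5.06% lower. The lists were chosen with earlier results of these data known, so differences between them were not tested.

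Likeness of pattern was measured as the root mean square difference between centred log2 values over the 8 libraries, among 9902 genes. The genes named are close to a Pim gene by selection, and their calls carry no weight of their own. Nearest to Pim1 were Pgpep1l, a peptidase-like gene, at 0.0567, Mtmr3, a phosphoinositide phosphatase, at 0.0751, and Slamf6, a SLAM family receptor of lymphocytes, at 0.0834. Nearest to Pim2 were Myc at 0.128, Trat1, an adaptor of the T cell receptor complex, at 0.134, and Atp1b1, a subunit of the sodium pump, at 0.169. Nearest to Pim3 were Appl2, an endosomal adaptor, at 0.0662, Nle1, a ribosome assembly factor, at 0.0975, and Diexf, a nucleolar protein, at 0.107. The Pim genes were not each other's nearest. Pim1 and Pim3 were 0.22 apart. Among the 9902 genes, Pim3 ranked 169th in likeness to Pim1, and Pim1 236th in likeness to Pim3. Pim2 was 0.407 from Pim1, ranking 3914th, and 0.389 from Pim3, ranking 4294th. In likeness to Pim2, Pim3 ranked 166th and Pim1 205th. The values were centred but not scaled, so the size of the difference between the groups enters these distances.

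Genes next to the Pim genes were examined to see whether whole neighbourhoods moved. Over all tested genes, 4.41% were called higher and 5.06% lower, so a count over few neighbours cannot show whether a neighbourhood moved. Within 100 kb, 12 neighbours were tested, 1 of Pim1, 8 of Pim2 and 3 of Pim3. Of these, 0 were called higher and 1 was called lower. It was Timm17b, a subunit of the mitochondrial import machinery 15925 bases from Pim2, at a log2 difference of -0.63 (limma adjusted p = 0.0097), named after its values were seen. The closest neighbours of Pim2, Slc35a2 at 596 bases and Otud5 at 1636 bases, stood at -0.37 and 0.17 and did not pass (adjusted p = 0.201 and 0.255). Pim2 lies on the same chromosome as Foxp3, which carries the YFP-Cre allele, with 283016 bases between them. The count in that gap has the same limit, and of its 10 tested genes 0 were called higher and 1 lower. That gene was Syp, the vesicle protein synaptophysin, with means of 190 in Pdpk1 KO and 592 in WT and a log2 difference of -1.67 ± 0.21 (limma adjusted p = 9.61e-05), named after its values were seen. Gm26885, an antisense gene overlapping Pim1, averaged 2.47 ± 2.39 normalized counts in Pdpk1 KO and 1.04 ± 2.08 in WT, far under the level of Pim1.

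Pim transcripts are known to be short lived, and AU-rich elements in their 3′ untranslated regions take part in their decay. The word AUUUA occurred 5 times in the 1365 bases of the Pim1 region, 2 times in the 915 bases of Pim2 and 5 times in the 964 bases of Pim3. Per kilobase that was 3.66 for Pim1, 2.19 for Pim2 and 5.19 for Pim3, against a median of 1.30 over 11251 genes. The density was above that of 87.3% of genes for Pim1, 68.6% for Pim2 and 94.6% for Pim3. Any link between density and the difference between the groups was not tested. These counts describe the annotated sequence, and decay was not measured.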

How the data were processed

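Polyadenylated RNA was sequenced from 4 Pdpk1 KO and 4 WT libraries. The deposited signal values are reads per gene scaled by size factors, as the authors' table name and its values show: in each library 100% were whole multiples of the smallest step, within a tolerance of 0.001, so reads were recovered. Per the submitters' processing notes, the tools were STAR 2.7.6a, featureCounts (Subread 2.0.1), Trimmomatic 0.39, DESeq2 1.21 and SAMtools 1.11, with the build GRCm38. The sources used here give no roles, settings, strand or annotation release. Overlapping genes therefore cannot be told apart by strand. RPKM was computed from the recovered reads. Of 19826 listed genes, 19775 matched a GENCODE M21 symbol. A count of 0 allows up to 3 reads, 2.56 to 3.38 normalized counts, for counting error only.

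Genes with a normalized count of at least 10 in at least 4 libraries (13847) were tested on log2(normalized count + 1), which understates changes of low genes, with limma 3.58.1 in R 4.3.3 (lmFit, eBayes with trend, two-sided, Benjamini-Hochberg over all tested genes, threshold 0.05, no replicate term). Differences are Pdpk1 KO minus WT. A permutation p used SciPy over all 70 assignments, smallest possible 0.0286. The limma fit was tested on simulated data, as were the edgeR and DESeq2 fits used as alternatives. The permutation test and the fits with a replicate block or macrophage covariate were not. Alternatives were pseudocounts of 0.5 and 5, no filter, all 8 libraries at 10 or more, TMM scaling, quantile normalization, edgeR 4.0.16 and DESeq2 1.42.0 on recovered reads, each library left out, a replicate block, and a macrophage covariate.

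The members and gene lists were chosen with earlier results of these data known. Named genes were the Pim genes, Pdpk1 and Foxp3, up to 6 genes past the threshold per list by adjusted p (where none passed, the 2 most highly expressed), and the 3 genes most like each Pim gene with a mean of at least 50 and an established symbol. Others are named after their values were seen. A few genes picked by this rule are not reported here but remain in the counts of their lists.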

Additional observations from a re-analysis of the deposited data

Results flagged for a closer look

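Among 94 groups of 4 libraries examined for a library far from the others, 1 was found, while chance alone gives about 1 in 20. It was Bcl2 in WT, where WT 2 had the lowest normalized count, 8008.1, against a group median of 8735, and its gap to the next library made up 0.89 of the range of the group. No library met this rule for Pim1, Pim2 or Pim3. WT 1 came close for Pim1, at 8409.8 against 6186.3 in WT 4, the next highest WT library. Leaving out WT 1 gave a Pim1 log2 difference of 0.81.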

How the results depend on the processing

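Leaving out each library in turn gave 0.63 to 0.81 for Pim1, 1.27 to 1.41 for Pim2, 0.54 to 0.72 for Pim3 and 0.70 to 0.87 for the log2 ratio of their sum. With the macrophage covariate Pim1 was at 0.94, Pim2 at 1.12 and Pim3 at 0.58. Pim3 was not among the genes called in that fit, nor without the 3 libraries highest in macrophage markers, while Pim1 and Pim2 were called in both. The count of all genes called higher was 1243 under the replicate block, 224 with the macrophage covariate, 167 without the 3 libraries highest in macrophage markers and 389 to 588 with 1 library left out. Called lower were 1292, 299, 305 and 495 to 724 under the same settings. Of the genes on the 8 lists and the Treg identity list 28, 8, 7 and 11 to 15 were called higher and 34, 9, 8 and 13 to 19 lower. DESeq2 called 848 higher and 908 lower, and edgeR 599 and 655. With 1 library left out Foxp3 ran between -0.01, without Pdpk1 KO 1, and 0.17, without WT 1. It was at 0.21 with the macrophage covariate, and Hsp90ab1 was at -0.07 under quantile normalization. The cause of these shifts was not tested. Libraries of the same number correlated at 0.217, 0.0921, 0.0481 and 0.113 in their deviations from the group means, and 3 of 4 in each group correlated best with their own number, which hints at but does not show a pairing. Under the block Pim1, Pim2 and Pim3 stayed at 0.69, 1.32 and 0.64, and Hsp90ab1 and Hspa8, at 0.26 and 0.38, were called higher (limma adjusted p = 0.00965 and 0.00245). With 4 libraries per group and no record of the animals, small differences of low genes cannot be resolved.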
